A study of Mus musculus with 12 samples.

Results

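Diet and an endothelial Nox1 knockout were crossed in this study, and the interaction of these 2 factors was computed gene by gene in the mouse soleus, a slow oxidative hind limb muscle. An interaction is the part of the response to 1 factor that depends on the other factor. Per gene it was the log2 fold change of G4 versus G2 minus that of G3 versus G1, both taken from the authors' deposited tables. A value above 0 means that the step from G2 to G4 went further up, or less far down, than the step from G1 to G3. Of 28997 genes listed, 15494 had a total of at least 100 normalised reads over all libraries and were tested. The 100 genes just below that total had a median standard error of 0.95 for the interaction log2, and the 100 just above it 0.93.

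Per the labels, soleus RNA came from 12 mice in 4 groups of 3. Mice of the genotype Cdh5cre-WT received chow or a high fat diet, and mice of the genotype Cdh5Cre-NOX1CKO received the same diets, in each case for 8 weeks. As these names read, every group carries a Cre driven by Cdh5, a gene of endothelial cells, so no group lacks the Cre. The labels give no age, sex or strain, and the title names obesity and muscle mitochondria as the questions.

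The tables name the groups only as G1, G2, G3 and G4, and no label says which genotype or diet a code stands for. The interaction is the same number as G4 versus G3 minus G2 versus G1, so it does not depend on which factor separates G3 from G1. Its sign can be read, but no value is attributed to either factor. It is a difference of differences provided that G1 and G4 differ in both factors, which is how the 4 deposited comparisons are laid out, although no label states it. The tables hold no value per library. Group levels were therefore rebuilt from each gene's total and log2 values, and are given as normalised reads per library with no SD. Whether the mice of 2 groups overlap could not be seen, and the errors are standard errors implied by the deposited p-values.

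Endothelial cells line the capillaries of muscle and pass fatty acids and glucose from blood to fibres. NOX1 is an NADPH oxidase, an enzyme that makes superoxide. When fatty acids are plentiful, muscle fibres switch on targets of the lipid-sensing nuclear receptors of the PPAR family, among them Pdk4, Angptl4 and Ucp3, and burn fatty acids in place of glucose. An interaction in such a gene is a response to diet that differs between the genotypes.

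The targeted gene could not check the labels. Nox1 (chromosome X, 134086421 to 134221956, GRCm38) had a total of 25.2 normalised reads, below the minimum, and was rebuilt at 1.93 normalised reads per library in G1 and 3 in G2, and 1.65 in G3 and 1.83 in G4. Its interaction log2 was -0.49 with a standard error of 1.80, and at this depth whole muscle could not show whether endothelial cells had lost it. Cdh5 itself, the endothelial cadherin, stood at 4184, 3939, 4508 and 4619 normalised reads per library in G1 to G4, with an interaction log2 of 0.12 and a standard error of 0.20. Totals over all genes came to 298863066 normalised reads, or 24905255 per library on average. Size factors of the libraries were inferred, each as the inverse of a lowest total, taken as 1 read in 1 library. Each was placed in a group by the log2 values of the genes with that total. They ran from 0.787 to 0.938 in G4 and from 0.797 to 1.25 in the other groups.

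Across the transcriptome 1 of the 15494 genes (0.00645%) passed a Benjamini-Hochberg adjusted p of 0.05 for the interaction. It was the pseudogene Gm20775, with a value below 0, and no gene passed with a value above 0. At an unadjusted p under 0.05 there were 638 genes (4.12%), 308 with higher values (1.99%) and 330 with lower values (2.13%). The share of 4.12% is no more than a threshold of 0.05 gives when no gene has an interaction. At an unadjusted p under 0.001 there were 27 of the 15494 genes, of which 8 lay above 0 and 19 below. That count is above what a threshold of 0.001 gives when no gene has an interaction, and the excess was not tested. The median interaction log2 over all genes tested was 0.01, with quartiles of -0.16 and 0.16, and 7975 genes (51.5%) lay above 0.

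The size of interaction these 12 mice could show can be read from the errors. The median standard error was 0.25 on the log2 scale, with quartiles of 0.17 and 0.44. A gene with the median error would have needed an interaction log2 of 1.16, or 2.24-fold, to be the first gene called. The 95% interval lay within 1 log2 unit of 0 for 10574 genes (68.2%) and within 0.5 for 5110. An interaction of 2-fold or more thus lay outside the interval of most genes. At the median error, a measured interaction smaller than about 2.24-fold could not be the first call. This bound is on the measured value, and it loosens with each further gene called.

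Calls in the comparisons that make up the interaction were counted beside it. Among the genes tested here, 61 (0.394%) passed an adjusted p of 0.05 in G3 versus G1, 200 of the 14539 with an adjusted p (1.38%) in G4 versus G2 and 7 (0.0452%) in G4 versus G3, by the authors' deposited tables. These first 2 comparisons have no group in common, and 45 genes passed in both, 41 rising and 4 falling. For these 45 the interaction log2 had a median of 0.05 and ran from -0.34 to 0.55. They were chosen for like changes in both, which keeps their difference small, so these values are a description. Among all genes tested, 6968 (45.0%) had opposite signs in these comparisons.

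**Figure D1:**
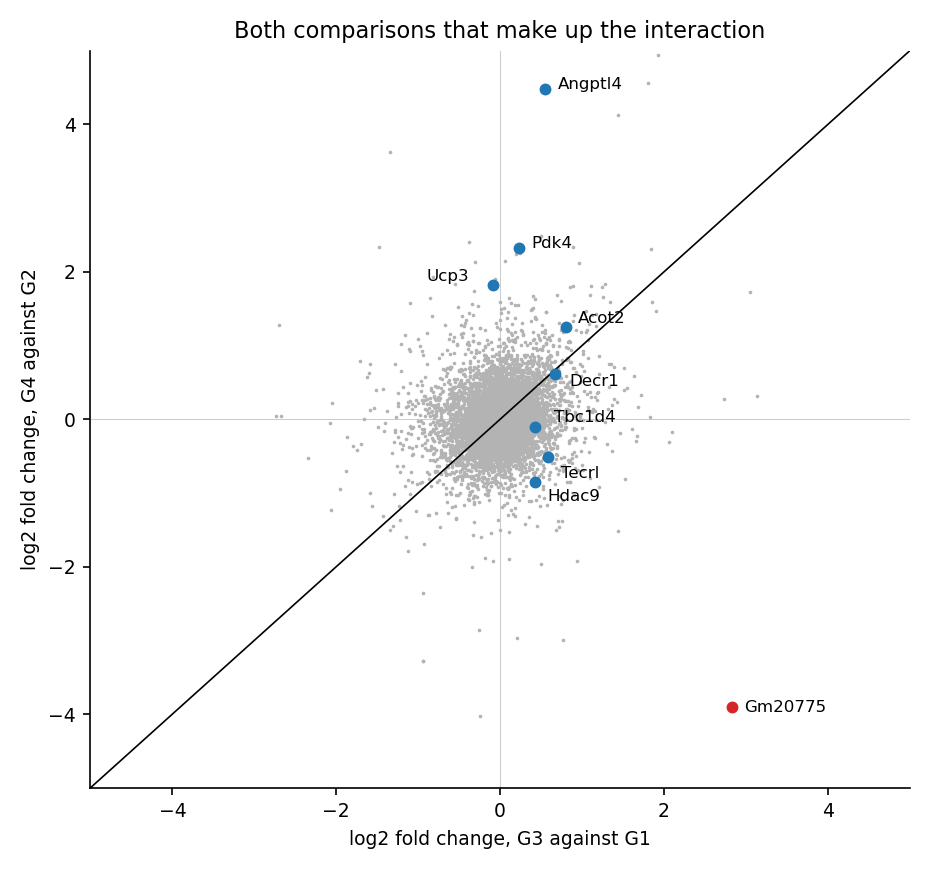
Each point is 1 of the 15494 genes tested, with the log2 fold change of G3 versus G1 on the x axis and that of G4 versus G2 on the y axis; 1 gene lies outside the axes. The interaction is the vertical distance from the diagonal line: Decr1 lies on it, Ucp3, Pdk4 and Angptl4 lie above it, and Gm20775 (red) lies farthest below it among the labelled genes.

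Which group stood apart was described for the 150 genes (0.968%) at an unadjusted p under 0.01. A threshold of 0.01 gives about that share when no gene has an interaction. The genes were also chosen by the interaction itself, so the counts of groups are only a description. G4 was farthest from the other 3 groups in 33 genes where it was high and 41 where it was low. G2 was farthest in 20 and 20, G3 in 17 and 10, and G1 in 4 and 5. G4 also held the library with the lowest inferred size factor, 0.787, and the part of depth in these counts was not tested.

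Gm20775 (chromosome Y, 10641257 to 10643107, minus strand, GRCm38) is annotated as an unprocessed pseudogene with 1 exon. Its rebuilt levels were 4.94 normalised reads per library in G1 and 16.9 in G2, and 35 in G3 and 1.13 in G4, so it was highest in G3 and nearly absent in G4. The interaction log2 was -6.73 with a standard error of 1.43, a 95% interval of -9.53 to -3.94 and a Benjamini-Hochberg adjusted p of 0.0357. By the authors' deposited tables its log2 was 2.82 for G3 versus G1 (adjusted p = 0.285), -3.91 for G4 versus G2 (adjusted p = 0.0473) and -4.96 for G4 versus G3 (adjusted p = 0.0317). Most of its total of 173.9 normalised reads came from G3, and without G3 it would not have reached the minimum of 100. Its place among the genes tested thus depended on its high group. With no minimum total its adjusted p was 0.0567 and with the Benjamini-Yekutieli adjustment 0.365, so the call rests on the settings used. Under a t distribution it was 0.265, but p-values rebuilt that way missed the deposited ones by up to 4.36 in the log10.

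Reads of Gm20775 can be told from those of another gene only where they cover 1 of 5 positions. All 1851 bases of its transcript aligned to Rmi1 at 99.73% identity, with 5 mismatches and 0 gaps, and 0 other genes aligned at 85% or more. Rmi1 (chromosome 13, 58402248 to 58411148, plus strand), which encodes a partner of the BLM helicase in the resolution of recombined DNA, has a coding sequence of 1851 bases with its stop codon. The aligned stretch has the length of that coding sequence. With the Gm20775 base first and positions counted from 1 at its 5′ end, the substitutions were A509G, G1231A, A1263G, A1476G and G1716T. A read that covers none of these positions, as one from between 509 and 1231 can be, is the same in both genes. Positions 1231 and 1263 lie closest together, so a read longer than the gap between them covers a difference there. That stretch is shown from both transcripts (GENCODE M21), with the pair in capitals. It spans bases 1217 to 1277 of Gm20775 and 1862 to 1922 of Rmi1, where it is exonic and coding.
Gm20775: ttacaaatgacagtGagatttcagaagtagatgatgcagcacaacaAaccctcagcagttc
Rmi1: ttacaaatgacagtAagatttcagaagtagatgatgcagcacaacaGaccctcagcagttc

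Rmi1 was rebuilt at 195 normalised reads per library in G1 and 186 in G2, and 162 in G3 and 188 in G4, lowest where Gm20775 was highest. Its interaction log2 was 0.29 with a standard error of 0.23. The sum of both genes was 200.4 in G1 and 203.4 in G2, and 196.7 in G3 and 189.2 in G4, and the interaction of the sum was -0.08 on the log2 scale, with no test. How the reads common to both genes were divided is not stated by any source used here, and Gm20775 is therefore reported as uncertain. Other genes of the Y chromosome had interaction values of the same sign that were much smaller in size. Ddx3y, Kdm5d and Uty were lowest in G4, as Gm20775 was, and Eif2s3y was lowest in G3. The interaction log2 was -0.17 for Ddx3y, -0.11 for Eif2s3y, -0.34 for Kdm5d and -0.03 for Uty, with standard errors of 0.16 to 0.24, and none reached an unadjusted p of 0.05. Ddx3y stood at 1630, 1635, 1671 and 1495 normalised reads per library in G1 to G4.

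The genes next in order of p, none of which passed, were Ucp3, Tecrl and Tbc1d4. Ucp3 (chromosome 7, 100472990 to 100486432, plus strand) encodes an uncoupling protein of the inner mitochondrial membrane in muscle. It stood at 2442 normalised reads per library in G1 and 683 in G2, and 2295 in G3 and 2419 in G4. G2 was thus the low group, and the other 3 lay close together. The interaction log2 was 1.91 with a standard error of 0.46 and a 95% interval of 1.0 to 2.82, a 3.77-fold difference of the ratios, and its Benjamini-Hochberg adjusted p was 0.294. In the authors' deposited tables its log2 was -0.09 for G3 versus G1 (adjusted p = 1.0) and 1.82 for G4 versus G2 (adjusted p = 1.64e-05).

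The promoter of Ucp3 is shown because PPAR receptors bind repeats of the hexamer AGGTCA. In the 250 bases before the RefSeq start (GRCm38.p6, chr7:100472741-100472990, plus strand, 5′ to 3′) capitals mark exact matches to that hexamer, whose reverse complement TGACCT was searched as well.
Ucp3: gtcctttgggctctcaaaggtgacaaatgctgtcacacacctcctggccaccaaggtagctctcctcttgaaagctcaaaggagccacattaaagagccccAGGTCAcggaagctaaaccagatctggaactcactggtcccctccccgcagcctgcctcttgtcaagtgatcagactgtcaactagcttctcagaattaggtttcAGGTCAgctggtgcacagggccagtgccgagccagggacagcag
The 2 matches begin 149 and 44 bases before the start, so they lie apart and do not form an exact repeat of neighbouring hexamers. A match to the hexamer on either strand was found in 4607 of 32851 RefSeq windows of this length (14%), and in 0 of 1 window of Pdk4. A match is a description of the sequence and shows no binding.

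Targets of PPAR in muscle had higher interaction values than most genes, and the rebuilt level of each one tested was lowest in G2. Of 19 tested out of 20 listed, 17 lay above 0 with a median interaction log2 of 0.33, beside 7975 of 15494 genes and a median of 0.01 overall. None was called, and 3 reached an unadjusted p of 0.05, all above 0. Their rebuilt level was lowest in G2 in 19 of 19, where 4029 of all 15494 genes were lowest in G2. It was highest in G3 in 12 of 19, where 3945 of all genes were. The list's median log2 was -0.38 for G2 versus G1 and 0.40 for G3 versus G1. For the list as a whole, G1 thus also lay below G3, unlike in Ucp3. For this and the later lists, 4.12% of all 15494 genes reached an unadjusted p of 0.05 and 51.5% lay above 0. Of all these genes, 3096, 4029, 4134 and 4235 were lowest in G1 to G4, and 3262, 3980, 3945 and 4307 were highest. Members of a list were measured in the same mice and vary together, so such counts are descriptions and not independent observations.

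Pdk4, a kinase that shuts off pyruvate dehydrogenase, stood at 27653 normalised reads per library in G1 and 7459 in G2, and 32512 in G3 and 37389 in G4. Its interaction log2 was 2.09 with a standard error of 0.80 and a 95% interval of 0.53 to 3.65. Angptl4, a secreted inhibitor of lipoprotein lipase, stood at 91.4 in G1 and 11.8 in G2, and 134 in G3 and 261 in G4, with the largest interaction log2 of the list, 3.92 with a standard error of 1.32. Both were again low in G2, and neither passed, with adjusted p-values of 0.974 for Pdk4 and 0.803 for Angptl4. The acyl-CoA thioesterase Acot2 showed another pattern, with 1321 and 950 normalised reads per library in G1 and G2 and 2304 and 2265 in G3 and G4. It rose in both comparisons in the authors' deposited tables, by 0.80 for G3 versus G1 and by 1.25 for G4 versus G2, and its interaction log2 was 0.45 with a standard error of 0.28. Reads of Acot2 may be split with its near copy Acot1, which had an interaction log2 of 0.55. At the other end of the list, Cpt1b, the muscle carnitine palmitoyltransferase, had -0.08 with a standard error of 0.10, and Acadm, Lpl and Acaa2 lay between -0.00 and 0.03.

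**Figure D2:**
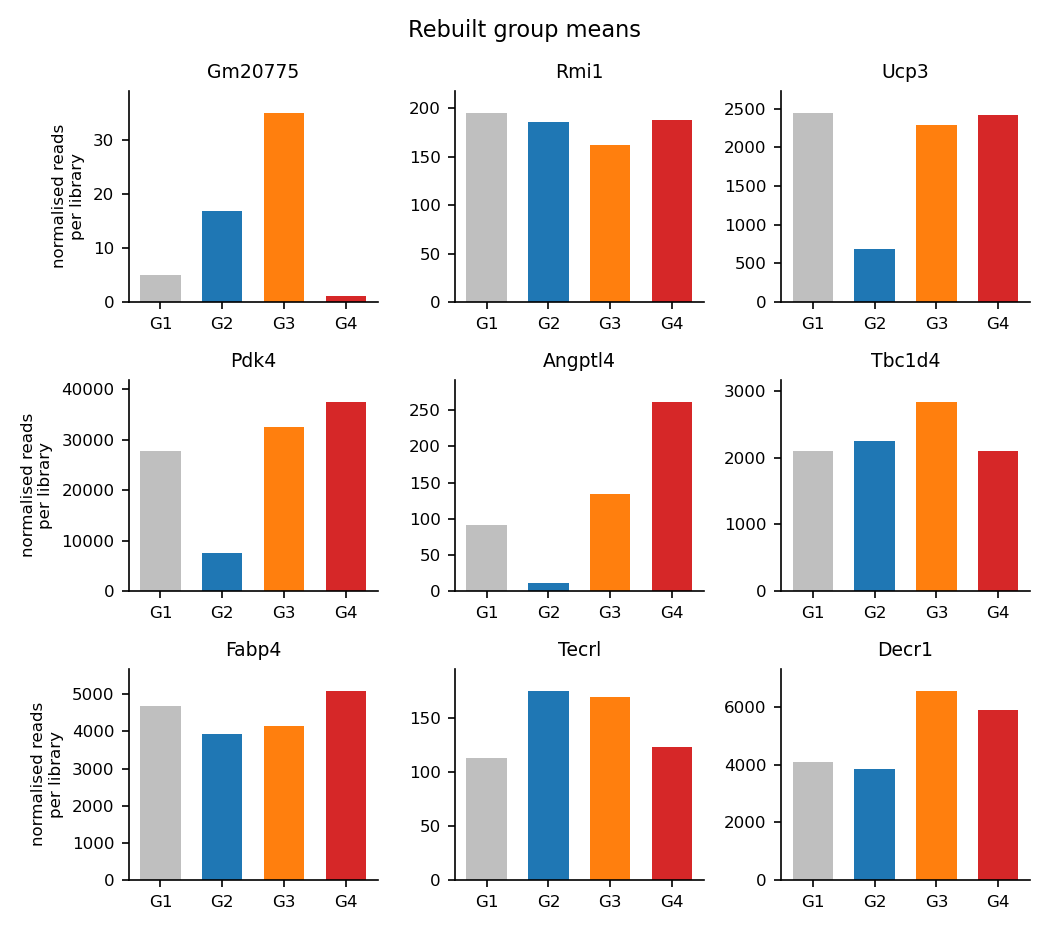
Bars show rebuilt group means in normalised reads per library for 9 genes in G1 to G4, with axes from 0 and no error bars because the tables hold no value per library. G2 is the low group for Ucp3, Pdk4 and Angptl4, Gm20775 is high in G3 while Rmi1 is lowest there, and Decr1 is higher in G3 and G4 than in G1 and G2.

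Genes of fatty acid oxidation, the stepwise shortening of fatty acids for energy, had values close to 0. All 23 were tested, 16 lay above 0, the median interaction log2 was 0.03, and values ran from -0.08 to 0.20. None reached an unadjusted p of 0.05, and the 95% interval lay within 0.5 log2 units of 0 in 22 of 23. The exception was Ehhadh, with a standard error of 0.39. Decr1, a reductase for unsaturated fatty acids, had 4109 normalised reads per library in G1 and 3856 in G2, and 6548 in G3 and 5908 in G4. It rose by 0.67 in G3 versus G1 and by 0.62 in G4 versus G2 in the authors' deposited tables, and its interaction log2 was -0.06 with a 95% interval of -0.22 to 0.10. The dienoyl-CoA isomerase Ech1 rose by 0.71 and 0.69 in the same tables, with an interaction log2 of -0.02 and a standard error of 0.15.

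Among the members with the smallest unadjusted p were Eci2 (0.11 with a standard error of 0.10), Etfb (0.12 with 0.11) and Echs1 (-0.08 with 0.10). Eci2, an enoyl-CoA isomerase, stood at 1663, 1502, 2112 and 2064 normalised reads per library in G1 to G4, so that G3 and G4 were both high. The rebuilt level was lowest in G2 in 22 of 23 and highest in G3 in 20, beside 4029 and 3945 of all 15494 genes. The low G2 values of these genes were small in size: the list's median rebuilt log2 for G2 versus G1 was -0.09, whereas that of the PPAR targets was -0.38. Cpt1b, Slc25a20, Acadm, Acaa2 and Ehhadh belong to both lists.

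In triglyceride synthesis and lipolysis, the genes with the smallest unadjusted p were 2 lipases, while other genes of lipolysis had values nearer to 0. Of 21 tested out of 23 listed, 13 lay above 0 with a median interaction log2 of 0.11, and 2 reached an unadjusted p of 0.05, both above 0. Mgll, the monoacylglycerol lipase, had 2818, 2169, 3151 and 3774 normalised reads per library in G1 to G4 and an interaction log2 of 0.64 with a standard error of 0.18 (adjusted p = 0.439). Lipe, the hormone-sensitive lipase, had 1017, 712, 1191 and 1196 and an interaction log2 of 0.52 with a standard error of 0.19 (adjusted p = 0.97). Both lipases were lowest in G2, and neither passed. The triglyceride lipase Pnpla2 had 0.23 with a standard error of 0.16, its coactivator Abhd5 -0.05 with 0.14 and its inhibitor G0s2 0.28 with 0.71. The droplet proteins Cidec and Plin5 had 1.34 with a standard error of 0.84 and 0.38 with a standard error of 0.25.

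Markers of adipocytes were lowest in G2 as a sum, as these lipases were. Of 12 tested out of 13 listed, 10 lay above 0 with a median interaction log2 of 0.53, and 2 reached an unadjusted p of 0.05, while none was called. Of the 12, 8 were lowest in G2 and 6 highest in G1. Their summed rebuilt level was 7493 normalised reads per library in G1 and 5815 in G2, and 6673 in G3 and 7644 in G4. Fabp4, a fatty acid binding protein of adipocytes and endothelial cells, made up most of it with 4680, 3927, 4159 and 5084, and its interaction log2 was 0.54 with a standard error of 0.14, with an adjusted p of 0.419. Adipoq, the adipocyte hormone adiponectin, had 156, 90.7, 129 and 150 and an interaction log2 of 0.99 with a standard error of 0.60. Lipe and Cidec are on this list too. In whole muscle, fewer adipocytes and less RNA per adipocyte cannot be told apart, and the part of adipocytes in the values of Angptl4, Lipe and Mgll was not tested.

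In lipid transport, the 3 genes below 0 with the smallest unadjusted p were transporters of the ABC family. Of 17 genes tested, 10 lay above 0 with a median interaction log2 of 0.03, and 3 reached an unadjusted p of 0.05 below 0 and 1 above. Abca8a had -0.50 with a standard error of 0.15, Abca8b -0.39 with 0.12 and Abca2, a lipid transporter of lysosomes, -0.40 with 0.13. Abca2 stood at 834 normalised reads per library in G1 and 851 in G2, and 1005 in G3 and 779 in G4. Their transcripts are long (5619, 7423 and 8033 bases), and long transcripts had lower values throughout the data, as given with the plot of the interaction by transcript length. The 1 above 0 was Fabp4, which counts in both lists.

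Lipogenesis genes, which make fatty acids, leaned the other way from the PPAR targets. Of 16 tested, 3 lay above 0 with a median interaction log2 of -0.10, and 1 reached an unadjusted p of 0.05. Scd2, a stearoyl-CoA desaturase, had 645, 753, 1063 and 908 normalised reads per library in G1 to G4 and an interaction log2 of -0.45 with a standard error of 0.18. It rose by 0.72 in G3 versus G1 in the authors' deposited table (adjusted p = 2.52e-05). Fasn, the fatty acid synthase, was high in G2, with 489, 797, 439 and 408, and had an interaction log2 of -0.81 with a standard error of 0.63. Fads2 had -0.44 with a standard error of 0.38 and Acacb -0.10 with 0.11.

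Among genes of insulin signalling and glucose uptake, Tbc1d4 had the smallest unadjusted p, with a value below 0 that did not pass. Tbc1d4 (chromosome 14, 101442360 to 101609191, minus strand), the Akt substrate that holds glucose transporters inside the cell until insulin acts, had 2103 normalised reads per library in G1 and 2248 in G2, and 2829 in G3 and 2098 in G4. G3 was the high group. The interaction log2 was -0.53 with a standard error of 0.14, a 95% interval of -0.79 to -0.26 and an adjusted p of 0.376. By the authors' deposited tables it rose by 0.43 in G3 versus G1 (adjusted p = 0.006) and had a log2 of -0.43 in G4 versus G3 (adjusted p = 0.0238). Of the 20 genes of this list, 10 lay above 0, the median was 0.03, and the other gene at an unadjusted p under 0.05 was Grb10, an inhibitor of the insulin receptor, with -0.41 and a standard error of 0.20. Akt1 had 0.23 with a standard error of 0.17 and Rab10, a small GTPase of glucose transporter vesicles, 0.11 with 0.08. The insulin-responsive transporter Slc2a4 had -0.00 with a standard error of 0.11.

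Tecrl, an enoyl-CoA reductase-like gene of heart and muscle, was the remaining gene of these 3. It had 113 normalised reads per library in G1 and 175 in G2, and 170 in G3 and 123 in G4, high in G2 and G3. Its interaction log2 was -1.10 with a standard error of 0.28, with an adjusted p of 0.376. The histone deacetylase Hdac9, named after its values were seen, had the same shape, with 311, 460, 419 and 255 and an interaction log2 of -1.28 with a standard error of 0.34 (adjusted p = 0.418).

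Genes of glycolysis and glycogen mostly lay above 0. Of 22 tested, 20 did, with a median interaction log2 of 0.21, and 3 reached an unadjusted p of 0.05, beside 4.12% of all genes. Fbp2, the muscle fructose bisphosphatase, had 169, 117, 227 and 303 normalised reads per library in G1 to G4 and an interaction log2 of 0.94 with a standard error of 0.36. Gapdh had 5232, 4642, 4010 and 4641 and Ldha 15860, 13636, 12560 and 14633, with interaction log2 values of 0.38 (standard error 0.16) and 0.44 (standard error 0.19). Aldoa, the muscle aldolase, had 0.43 with a standard error of 0.22. The pattern differed from that of the PPAR targets, since 17 of the 22 were lowest in G3 and 15 were highest in G1. Of all 15494 genes, 4134 and 3262 were. Reads of Gapdh and Ldha may be split with their pseudogenes.

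Fast fibre genes lay above 0 and slow fibre genes below. Of 16 fast fibre genes 15 lay above 0, with a median interaction log2 of 0.27, and of 16 slow fibre genes 3 did, with a median of -0.14. No fast fibre gene reached an unadjusted p of 0.05, and 2 slow fibre genes did. Myh7, the slow myosin heavy chain, had 221530, 311382, 226936 and 240300 normalised reads per library in G1 to G4, highest in G2, and an interaction log2 of -0.41 with a standard error of 0.20. Casq2, the slow-type calsequestrin that stores calcium, had 4797, 5726, 5626 and 4591 and an interaction log2 of -0.55 with a standard error of 0.22. Myh7b had -0.37 with a standard error of 0.23, and myoglobin (Mb) 0.19 with 0.10.

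Among fast fibre genes the smallest unadjusted p-values belonged to Eno3, which is also a glycolysis gene (0.42 with a standard error of 0.24), Myl1 (0.30 with 0.19), Tnni2 (0.25 with 0.16) and Tnnc2 (0.20 with 0.14). The fast troponin Tnni2 had 73401 normalised reads per library in G1 and 66942 in G2, and 58440 in G3 and 63213 in G4. Fast fibre genes were highest in G1 in 14 of 16 and lowest in G3 in 15, while slow fibre genes were highest in G2 in 13 of 16. The fast genes that vary most between fibre types had wide errors: Myh4 had 1.36 with a standard error of 2.51 and Actn3 1.63 with 1.71.

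The interaction fell with the length of the transcript, and this bears on every list of short or long genes. Lengths were matched for 15177 of the genes tested (98.0%). Across these genes Spearman's rho between length and interaction was -0.222, a description across genes of the same libraries with no test, and the rho was 0.118 with GC content and 0.02 with the total. The median interaction log2 was 0.08 in the shortest of 10 length classes of equal size (57 to 919 bases), 0.10 in the next, and -0.12 in the longest class (6572 to 123179 bases), where 73.0% of genes lay below 0. At an unadjusted p under 0.05 the longest class held 9 genes above 0 and 123 below, and the class next to the shortest 45 above and 6 below. In the longest class the median log2 was 0.03 for G2 versus G1, 0.06 for G3 versus G1, -0.07 for G4 versus G2 and -0.09 for G4 versus G3. A spline on total, length and GC content took 9.88% of the variance of the interaction z values. With that trend removed the median interaction log2 moved by over 1.5 times in several of the lists described. It went from 0.27 to 0.17 for fast fibre genes and from -0.14 to -0.24 for slow fibre genes. It went from 0.18 to 0.11 for endothelial, from 0.13 to 0.04 for macrophage and from 0.46 to 0.27 for erythroid markers. Smaller medians went from 0.11 to 0.07 for triglyceride genes, from 0.09 to 0.04 for antioxidant genes, from 0.07 to 0.05 for MHC class I genes and from 0.03 to 0.07 for insulin signalling. For fatty acid oxidation the median changed sign, from 0.03 to -0.01, and for PPAR targets it went from 0.33 to 0.23. Which step between tissue and table gave this trend was not tested.

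**Figure D3:**
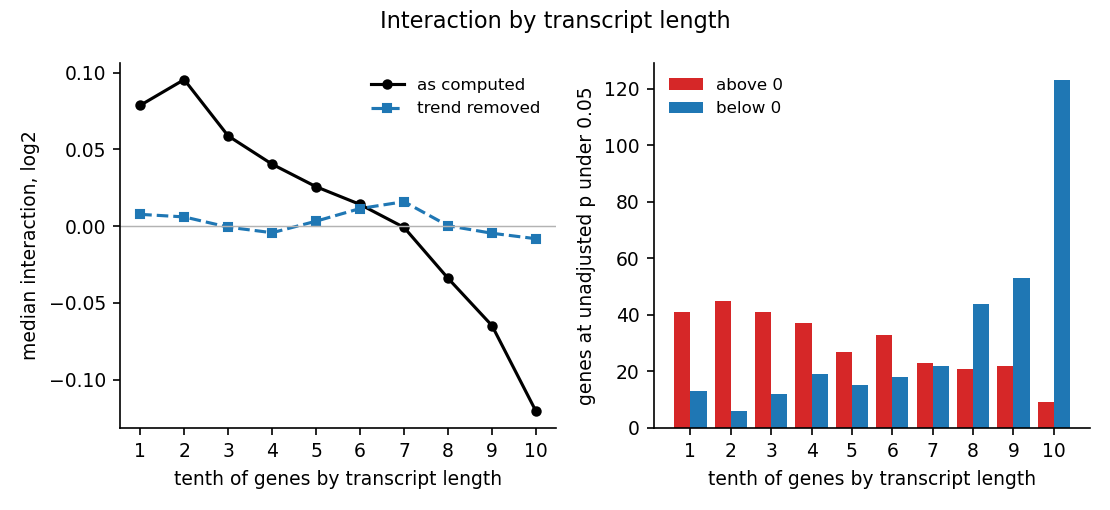
Left, the median interaction log2 in each of 10 length classes of genes (x axis, 1 shortest to 10 longest), as computed (black) and after the trend was removed (blue, dashed). Right, the number of genes at an unadjusted p under 0.05 above 0 (red) and below 0 (blue) in the same classes. The black line falls from 0.08 to -0.12, and the longest class holds 123 genes below 0 against 9 above.

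Genes of the respiratory chain, which the title's question of mitochondria concerns, lay slightly above 0 as a body. All 37 genes of complex I lay above 0, with a median interaction log2 of 0.12 and values from 0.01 to 0.28, and 41 of 41 tested genes of complexes II to V did, with a median of 0.11. At an unadjusted p under 0.05 there were 1 and 3 genes, beside 4.12% of all genes tested. Their transcripts are short, with median lengths of 1046 and 1116 bases. With the trend on total, length and GC content removed, 32 of 37 and 36 of 41 lay above 0, with medians of 0.07 and 0.06. The 95% interval lay within 0.5 log2 units of 0 in 36 of 37 genes of complex I and 38 of 41 of complexes II to V.

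Uqcrfs1, the Rieske iron-sulfur protein of complex III, had 10004, 8813, 9741 and 10409 normalised reads per library in G1 to G4, lowest in G2, and an interaction log2 of 0.28 with a standard error of 0.10 (adjusted p = 0.97). Cycs, cytochrome c, had 0.33 with a standard error of 0.16, Cox6a1 0.43 with 0.21, and Atp5g2 1.35 with 0.70. In complex I, Ndufa12 had 2151, 2055, 1922 and 2132 normalised reads per library and an interaction log2 of 0.22 with a standard error of 0.11. Ndufab1 followed with 0.28 (standard error 0.16), Ndufa11 with 0.18 (0.12) and Ndufa8 with 0.17 (0.12). Complex I genes were lowest in G3 in 19 and in G2 in 15 of 37, and highest in G4 in 29.

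The 13 mitochondrially encoded genes also all lay above 0, with a median interaction log2 of 0.07, and none reached an unadjusted p of 0.05. With the trend removed 10 did, with a median of 0.02. Their levels had another order than those of the nuclear genes, lowest in G2 in 13 of 13 and highest in G3 in 11. The largest values among those with the smallest p were 0.17 for mt-Nd3 and 0.13 for mt-Nd1, with standard errors of 0.18 and 0.12, followed by 0.12 for mt-Co3 and 0.11 for mt-Co2. Nd1 is a core subunit of complex I, and it had 391525, 360085, 407136 and 408428 normalised reads per library in G1 to G4.

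**Figure D4:**
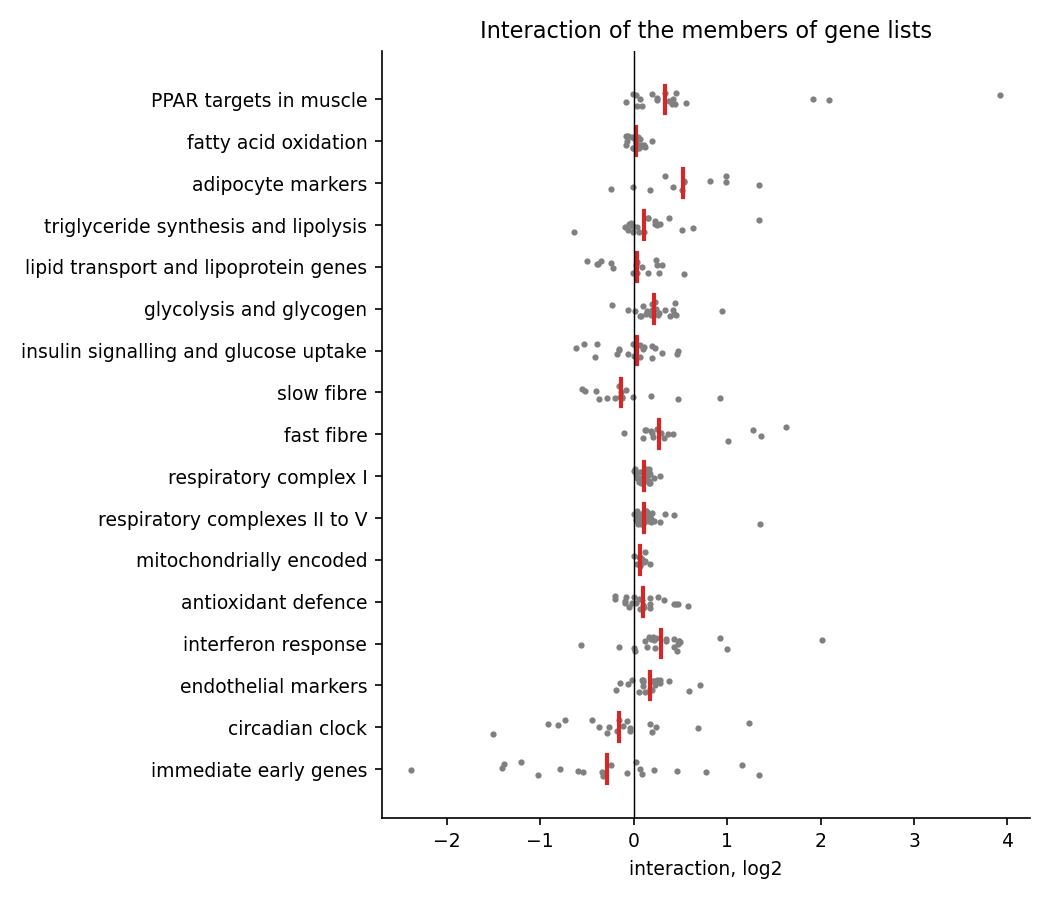
Each grey point is the interaction log2 (x axis) of 1 tested member of the list on the y axis, and the red bar is the list's median. Fatty acid oxidation genes lie between -0.08 and 0.20, and most respiratory chain genes lie near 0, with Cox6a1 at 0.43 and Atp5g2 at 1.35, whereas 3 PPAR targets lie near or above 2 and immediate early genes spread from -2.38 to 1.34.

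In the family of NADPH oxidases, of which Nox1 is a member, no member stood out and errors were wide. Of 14 genes listed 8 reached the minimum total, 5 of them lay above 0, and none reached an unadjusted p of 0.05. Rac1, a GTPase subunit with many other roles, had 0.14 with a standard error of 0.08, while the phagocyte subunits Rac2 and Ncf1 both had 0.66, with standard errors of 0.62 and 0.68. Duox1 had -0.49 with a standard error of 0.78. Nox4, the endothelial and fibroblast member, had -0.02 with a standard error of 0.41.

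Antioxidant genes held 4 members at an unadjusted p under 0.05 out of 24, all above 0, with 17 above 0 in all and a median interaction log2 of 0.09. Over all genes tested the shares were 4.12% and 51.5%. Gpx1, a glutathione peroxidase, had 586, 487, 526 and 598 normalised reads per library in G1 to G4 and an interaction log2 of 0.45 with a standard error of 0.20. The secreted peroxidase Gpx3 had 0.47 with a standard error of 0.22, Gclm, a subunit of the enzyme that starts glutathione synthesis, 0.43 with 0.19, and the sulfiredoxin Srxn1 0.58 with 0.29. None of these passed over all genes, each with an adjusted p of 1.0. The superoxide dismutases Sod1 and Sod2 had 0.00 with a standard error of 0.13 and 0.10 with a standard error of 0.10.

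Markers of endothelial cells, in which the Cre is driven, lay above 0 in 17 of 21, with a median interaction log2 of 0.18. Eng, a TGF-beta coreceptor, was the 1 member at an unadjusted p under 0.05. It had 1673 normalised reads per library in G1 and 1404 in G2, and 1610 in G3 and 2218 in G4, high in G4 alone, and an interaction log2 of 0.71 with a standard error of 0.26 (adjusted p = 0.97). Robo4 had 0.38 with a standard error of 0.20, Pecam1 0.28 with 0.20 and Cldn5 0.59 with 0.51. The summed level of the 21 markers was 26082 in G1 and 24863 in G2, and 27610 in G3 and 29469 in G4. Of angiogenic and hypoxia genes 10 of 15 tested lay above 0, with a median of 0.15. The oxygen-sensing hydroxylase Egln3 had 0.87 with a standard error of 0.32, Vegfa 0.42 with 0.23, Vegfb 0.19 with 0.11 and the apelin receptor Aplnr 1.16 with 0.63.

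Interferon response genes were mostly above 0 with wide errors. Of 24 tested out of 26 listed, 22 lay above 0, the median interaction log2 was 0.29, and 1 reached an unadjusted p of 0.05. That gene was Ifi27, with 346, 335, 318 and 393 normalised reads per library in G1 to G4 and an interaction log2 of 0.35 with a standard error of 0.14. The GTPase Iigp1 had 355, 284, 418 and 1353 and an interaction log2 of 2.02 with a standard error of 1.13, and Rsad2 and Oas1a had 0.93 and 1.0 with standard errors of 0.70 and 0.78. Levels were highest in G4 in 21 of 24, beside 4307 of all 15494 genes. Of 13 genes of MHC class I and antigen processing 8 lay above 0 with a median of 0.07, and the smallest unadjusted p-values belonged to Psmb10 (0.57 with a standard error of 0.34), Tap1 (0.68 with 0.42), B2m (0.30 with 0.28) and H2-D1 (0.24 with 0.24).

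Markers of blood-borne and resident cells were checked in the same way. Macrophage markers summed to 2607 normalised reads per library in G1 and 2034 in G2, and 2566 in G3 and 2117 in G4, with 11 of 14 above 0 and a median interaction log2 of 0.13. Erythroid genes summed to 4477, 2800, 4250 and 3696, with 5 of 5 tested above 0 and a median of 0.46, and all 5 were lowest in G2. Only 1 of 12 T and B cell markers and 1 of 10 neutrophil markers reached the minimum total. G2, the group that was low for Ucp3, Pdk4 and Angptl4, was thus also the lowest for the sums of adipocyte, erythroid, macrophage and endothelial markers. For macrophage markers G4 was nearly as low. The sums of fibroblast and of Schwann cell markers were lowest in G2 too. The sum of smooth muscle and pericyte markers was lowest in G1, and that of satellite cell genes in G3. Des made up most of the former sum. Cd34, which is also on the endothelial list, had the largest total of the satellite cell genes, 20722 normalised reads, beside 1216 for Pax7. Gene by gene, 8 of 10 smooth muscle and pericyte markers were lowest in G1 and 5 of 9 satellite cell genes in G3. The part of any of these cell types in the values of Ucp3, Pdk4 and Angptl4 was not tested.

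**Figure D5:**
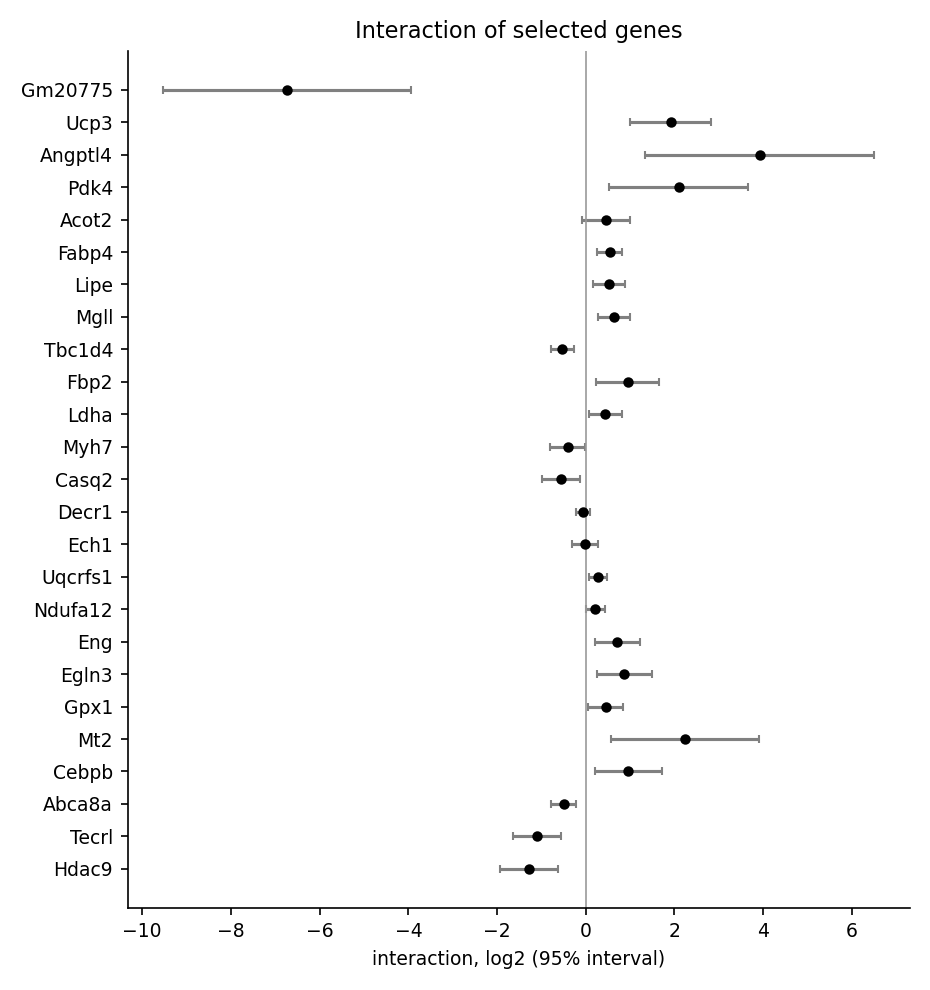
Points show the interaction log2 (x axis) of 25 named genes and bars the 95% interval from the implied standard error. Gm20775 at -6.73 was the only gene called over all 15494; the other intervals that leave out 0, such as that of Ucp3 from 1.0 to 2.82, are not adjusted for the number of genes.

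Over all 40 lists, 720 distinct genes were tested. None was called, and 42 reached an unadjusted p of 0.05 (5.83%), beside 4.12% of all genes tested. The list median lay above 0 in 30 of the 40. The lists were chosen with earlier results of these data known, and some share members, so these shares are only a description.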

How the data were processed

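Per the labels' protocols, a stranded mRNA kit was used for the 12 soleus libraries. The submitters' processing notes name edgeR, RSEM 1.2.15 and Bowtie2 2.1.0 and the builds mm10 and GRCm38, without the role of each tool or the origin of the p-values. Per the file headers, the 4 tables the authors deposited hold per gene a log2 fold change, a signed fold change, a total and a p-value with and without adjustment. The totals are a signal the authors deposited, reads divided by library size factors and summed over 12 libraries, as their values show. The signed fold change the authors deposited is a score that takes no values between -1 and 1, and was not used. The log2 values the authors deposited were used as they are. Other columns the authors deposited, adjusted p-values with blank cells for G4 versus G2 and G4 versus G3, were kept as blank, and 955 of the genes tested had none in G4 versus G2.

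Each standard error was the size of the log2 divided by the normal deviate of its unadjusted deposited p-value, and the variance of the interaction was the sum of both variances. The interaction was read against a normal distribution, two-sided, with Benjamini-Hochberg adjustment over 15494 genes, and genes under 0.05 are called. G2 versus G1 lists only genes at or below 0 and was rebuilt from the other 3 tables; on 7792 listed genes largest differences were 1.02e-14 in the log2 and 2.85e-06 in the log10 p, or 4.36 with a t distribution of 8 degrees of freedom. Counts per library were not analysed here, so no count model was run. The labels name separate animals, no batch and no pairing; mice on chow have lower animal numbers than mice on the high fat diet. How the deposited p-values take up the spread between these mice is not stated. For Ucp3 the implied standard error was 0.33 in each comparison, so it need not be the spread within the groups compared.

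Symbols were matched to GENCODE M21 (GRCm38) for positions and lengths, transcripts were aligned with blastn 2.17.0, and promoter windows came from RefSeq (GRCm38.p6). Scripts used Python 3.11.15, scipy 1.17.1, pandas 2.3.3 and patsy 1.0.2, and were tested on simulated data. The members and the 40 gene lists were chosen with earlier results of these data known. Genes were named by rule: Nox1, Cdh5, the called gene, the 4 members with the smallest unadjusted p of each list described, and the 3 genes just outside the threshold; other genes were named after their values were seen. Alternatives changed the minimum total, the distribution, the variance, the centring, the trend, the adjustment and the size required. Some genes that this rule takes are not reported here.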

Additional observations from a re-analysis of the deposited data

Results flagged for a closer look

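The interaction of Gm20775, with a log2 of -6.73, is listed because its effect differed between G4 versus G2 and G3 versus G1 by the test of the difference itself. It rests on a total of 173.9 normalised reads over 12 libraries, most of them from G3, and on reads that match Rmi1 at 99.73% of 1851 bases. Without G3 the gene would not have reached the minimum total. The sum of both genes ran from 189.2 to 203.4 normalised reads per library over the 4 groups. Division of reads between these genes was not tested, since the tables hold no reads.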

How the results depend on the processing

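The count of 1 called gene, and the count of 1 called lower, both became 0 with no minimum total (24612 genes, adjusted p 0.0567 for Gm20775), with totals of at least 1000 (10668 genes, Gm20775 not tested), with the Benjamini-Yekutieli adjustment (0.365) and with the variance from G4 versus G3 and G2 versus G1 (7792 genes, Gm20775 not listed). A t distribution with 8 degrees of freedom gave 3 calls, among them Chrna2 (0.41) and Decr1 (-0.06), that is 2 higher in place of 0 and 1 lower, with an adjusted p of 0.265 for Gm20775, and under that distribution rebuilt p-values missed the deposited ones by up to 4.36 in the log10. A raised variance, centring, removal of the trend and a minimum log2 of 1 each left 1 call, Gm20775, at adjusted p-values of 0.0256 to 0.0357. The adjusted p of Ucp3 ran from 0.294 to 1.0 over all settings. Among 99 named genes tested, 1 changed direction, Uty, from -0.03 to 0.0395 with the trend removed. No paired analysis was possible because the tables hold comparisons of groups and no column of a mouse, and no mouse could be left out for the same reason. Depth limits the interaction most for rare transcripts: the standard error was near 0.93 at a total of 100 and had a median of 0.25 over all genes tested.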

Other observations

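Genes of muscle atrophy and glucocorticoid response held 2 members at an unadjusted p under 0.05 out of 21 tested, both above 0, with 15 above 0 and a median interaction log2 of 0.23. Over all genes tested the shares were 4.12% and 51.5%. The metallothionein Mt2 had 62.8, 34.8, 35.3 and 91.6 normalised reads per library in G1 to G4, high in G1 and G4, and an interaction log2 of 2.23 with a standard error of 0.85. Its neighbour Mt1 had 0.75 with a standard error of 0.42. The transcription factor Cebpb had 679, 615, 880 and 1544, high in G4, and an interaction log2 of 0.95 with a standard error of 0.38. Fbxo32, the ubiquitin ligase atrogin-1, had -0.42 with a standard error of 0.22.

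Circadian and immediate early genes, which are known to follow the time of day and brief stimuli, had wide errors. Of 19 clock genes 5 lay above 0, with a median interaction log2 of -0.16 and none at an unadjusted p under 0.05. The smallest p-values belonged to Hlf (-0.81 with a standard error of 0.41), Ciart (-1.51 with 0.91), Nfil3 (1.23 with 0.92) and Per3 (-0.92 with 0.71). Of 20 immediate early genes 8 lay above 0, with a median of -0.29, or -0.47 with the trend on length, total and GC content removed. Myc was the 1 member at an unadjusted p under 0.05, with 55.9, 56.8, 48.1 and 109 normalised reads per library in G1 to G4 and an interaction log2 of 1.16 with a standard error of 0.55. Nr4a2 had -2.38 with a standard error of 1.39, Fosl2 -1.03 with 0.61 and Egr1 -1.39 with 0.90.

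Cell cycle genes, few of which are active in adult muscle, lay above 0 in 10 of 10 tested out of 15 listed, with a median interaction log2 of 0.57. The cyclin Ccna2 had 13.5, 5.6, 6.25 and 10.8 normalised reads per library in G1 to G4, low in G2 and G3, and an interaction log2 of 2.07 with a standard error of 0.90, with an adjusted p of 1.0. The replication helicase genes Mcm5, Mcm3 and Mcm6 had 0.98, 0.56 and 0.49, with standard errors of 0.55, 0.32 and 0.38. Genes of the cytosolic ribosome had 56 of 76 above 0 and a median of 0.06, and with the trend on length, total and GC content removed 36 of 76 and -0.00. The 3 of 76 at an unadjusted p under 0.05 are near the 4.12% of all genes tested. Of these members, Rpsa had 0.23, Rpl31 0.41 and Rpl35 -1.73, and such genes have many near copies, so their values are uncertain.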
